A study of Mus musculus with 24 samples.

Results

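Members of the BCL2 family and the p53 genes that regulate them were followed in mouse spermatogonia that lacked the transcription factor ZBTB16 or SOX3. The group was taken by gene name: Bcl2, Bcl2l1, Mcl1, Bax, Bak1, Bcl2l11, Bbc3, Pmaip1, Trp53 and Mdm2. All 10 genes were found once in each table of FPKM values (reads per length of transcript and depth of library), which list 23177 genes for the Zbtb16 mice and 21688 for the Sox3 mice. All 10 passed the filter on low values (a mean of at least 0.1 FPKM).

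RNA came from testes of C57BL/6J mice at postnatal day 7 (P7), pooled from 3 mice for each isolation and sorted after trypsin digestion with antibody-coated magnetic beads into THY1+ cells (uSPG, undifferentiated spermatogonia) and KIT+ cells (dSPG, differentiating spermatogonia). One table compared homozygous luxoid mice (Zbtb16 lu/lu, called null), in which every cell of the body carries the mutation, with wild-type (WT) mice. The other compared mice carrying floxed Sox3 and the germ cell driver Ddx4-Cre (cKO) with their own WT mice, a driver that acts in male germ cells and not in the supporting cells of the testis. Each genotype and fraction had 3 libraries, which gave 8 groups and 24 libraries. The labels do not say whether the libraries of a group came from separate isolations, but the authors describe their 3 RNA-seq replicates as biological and independent. The p-values measure the spread between libraries.

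The BCL2 family decides whether mitochondria release cytochrome c and start apoptosis. BCL2, BCL-XL (from Bcl2l1) and MCL1 guard the outer membrane, BAX and BAK (from Bak1) open it, and the BH3-only proteins BIM (from Bcl2l11), PUMA (from Bbc3) and NOXA (from Pmaip1) bind and neutralise the guardians. The transcription factor p53 (from Trp53) activates Bbc3, Pmaip1, Bax and Mdm2, and MDM2 marks p53 for degradation. In the testis a wave of BAX-dependent germ cell death accompanies the first round of spermatogenesis, and p53 contributes to the response of spermatogonia to DNA damage.

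Promoter sequence was searched for 9 of the 10 genes, with Pmaip1 left out. The windows of Bax and Mdm2 are shown because both are classic p53 targets. That of Bcl2 is shown because Bcl2 and Bax were the members that moved in opposite directions in the Sox3 table. Each window runs from 250 bases before to 50 bases after the RefSeq start (GRCm38.p6, the build of the files), 5′ to 3′ on the strand of the gene. Capitals mark a match to the p53 decamer in Bax (minus strand, chr7:45466849-45467148) and in Mdm2 (minus strand, chr10:117710709-117711008), and the GC boxes GGGCGG or CCGCCC in Bcl2 (minus strand, chr1:106714241-106714540).
Bax: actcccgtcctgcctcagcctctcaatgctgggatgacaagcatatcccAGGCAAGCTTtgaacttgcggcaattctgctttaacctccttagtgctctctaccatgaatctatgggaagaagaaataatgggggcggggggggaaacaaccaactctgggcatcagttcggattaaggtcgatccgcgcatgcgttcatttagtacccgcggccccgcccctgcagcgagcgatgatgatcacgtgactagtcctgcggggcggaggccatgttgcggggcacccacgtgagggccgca
Mdm2: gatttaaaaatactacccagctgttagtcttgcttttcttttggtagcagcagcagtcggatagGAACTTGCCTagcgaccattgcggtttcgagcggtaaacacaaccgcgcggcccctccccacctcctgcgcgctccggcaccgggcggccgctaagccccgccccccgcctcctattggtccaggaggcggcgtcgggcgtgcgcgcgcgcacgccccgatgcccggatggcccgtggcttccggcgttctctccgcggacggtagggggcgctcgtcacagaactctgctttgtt
Bcl2: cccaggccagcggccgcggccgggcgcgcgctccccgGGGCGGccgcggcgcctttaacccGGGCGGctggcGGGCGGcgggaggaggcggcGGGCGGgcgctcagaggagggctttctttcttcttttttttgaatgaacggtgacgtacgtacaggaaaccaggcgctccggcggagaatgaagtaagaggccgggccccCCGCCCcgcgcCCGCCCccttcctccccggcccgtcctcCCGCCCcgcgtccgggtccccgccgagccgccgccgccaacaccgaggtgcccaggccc
The decamer matches lie at -201 to -192 from the start in Bax and at -186 to -177 in Mdm2. Both strands were searched. The 9 genes had 14 windows in all. The p53 decamer was found in 3 of the 14 windows (in Bax, Mdm2 and Trp53) and in 8.36% of all 32851 windows of this length. The SOX core ACAAT or ATTGT was found in 4 of the 14 windows (in Bbc3, Bcl2l1, Bcl2l11 and Mcl1) and in 31.0% of all windows. GC boxes, of which the Bcl2 window held 7, were found in 9 of the 14 windows, from 6 of the genes, and in 35.7% of all windows. A match is a string of letters and not a measured binding site.

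Library depth, estimated from the spacing of low FPKM values, was about 25950000 to 35190000 reads in the Zbtb16 table. In the Sox3 table it was about 28250000 to 31890000 in replicate 1 and 11020000 to 14920000 in replicates 2 and 3. The value of a member in a library corresponded to between 21 reads (Bbc3) and 9289 reads (Mcl1). The targeted genes followed the genotype labels. Zbtb16 was 42.0 to 58.7 FPKM in WT THY1+ uSPG and 15.6 to 18.2 in null THY1+ uSPG, where a transcript remained, and Sox3 did not exceed 0.0820 FPKM in any cKO library against at least 6.28 in WT. Thy1 and Kit followed the fraction labels in all groups but the WT groups of the Sox3 table. There Thy1 was 0.213 to 0.254 FPKM in the libraries labelled THY1+ and 3.59 to 4.06 in those labelled KIT+, and Kit ran the other way (45.6 to 80.1 against 12.97 to 18.8). These libraries were not regrouped and are called WT labelled THY1+ and WT labelled KIT+. The Sox3 effect averaged over both fractions does not depend on which WT group is which and is therefore the main Sox3 comparison.

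Bax and Mcl1 were the most abundant members in all 8 groups, and Bax ranked above Mcl1 in 5 of them. The libraries of the pair overlapped in 4 groups. Mdm2 came next in 7 of 8 groups. At the other end Bbc3 was the lowest member in 7 of 8 groups and Bcl2 was ninth in 7. Among the WT THY1+ uSPG libraries of the Zbtb16 table the order of mean levels was Bax 57.6 ± 7.48, Mcl1 57.0 ± 5.89, Mdm2 32.1 ± 2.11, Pmaip1 19.7 ± 1.66 and Bcl2l1 10.5 ± 0.989 FPKM (SD, n = 3). It continued with Trp53 at 4.98 ± 0.846, Bcl2l11 at 3.88 ± 0.475, Bak1 at 3.30 ± 0.129, Bcl2 at 2.35 ± 0.246 and Bbc3 at 1.08 ± 0.237 FPKM (SD, n = 3). Of the neighbours in this order, Bax and Mcl1, and Trp53 and Bcl2l11, overlapped between libraries. MCL1 and BAX transcripts thus exceeded those of BCL2 and BAK by more than the spread of the libraries in this group.

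**Figure D1:**
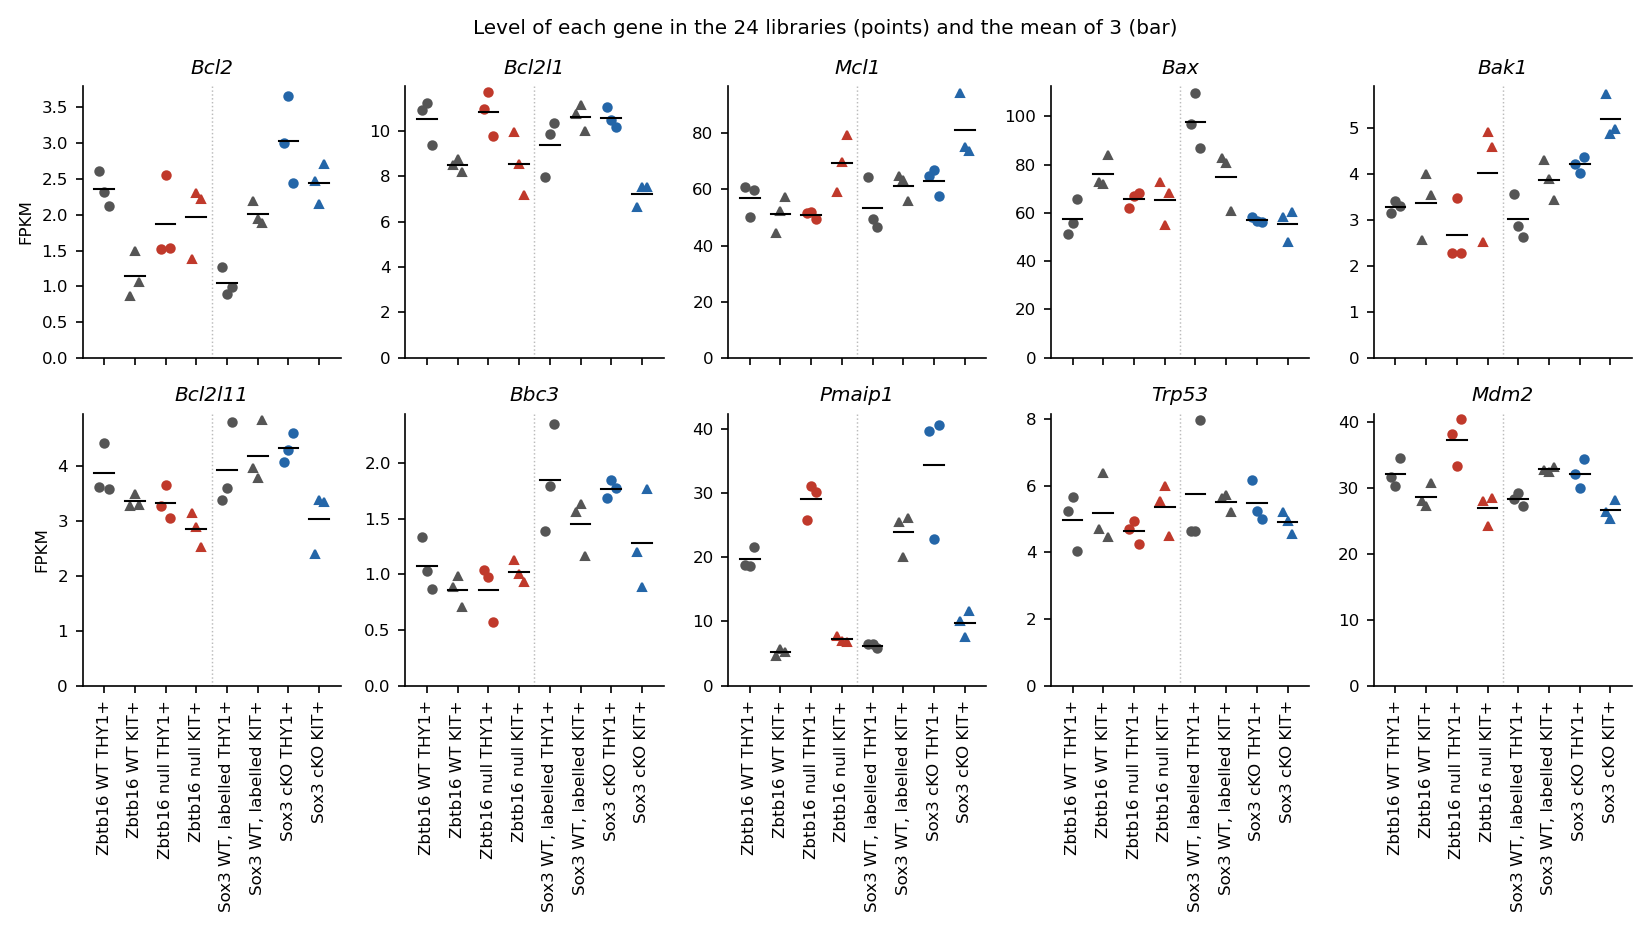
FPKM (vertical axis, from 0, linear and separate for each gene) of the 10 genes in 8 groups (horizontal axis), with each library as a point and the mean of 3 as a bar. Circles are libraries labelled THY1+, triangles libraries labelled KIT+, grey WT, red Zbtb16 null and blue Sox3 cKO. In the Zbtb16 table Pmaip1 lies between 18.7 and 31.1 FPKM in THY1+ uSPG, and its KIT+ dSPG libraries lie between 4.68 and 7.79.

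Pmaip1 had the widest range, 6.65-fold between the lowest and the highest of the 12 libraries of the Zbtb16 table, against 3.03-fold for Bcl2 and at most 2.35-fold for the other 8 members. In the Sox3 table the ranges were 7.02-fold for Pmaip1, 4.12-fold for Bcl2 and 1.36-fold for Mdm2, the steadiest member there. Trp53 itself ranged from 4.038 to 6.38 FPKM in the Zbtb16 table. In the Sox3 table it was 4.55 to 6.18 FPKM in 11 libraries and 7.97 in WT labelled THY1+ replicate 3.

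The first comparison asks how the members differ between undifferentiated and differentiating spermatogonia. Of the 10 members, 2 (Pmaip1 and Bcl2) were lower in the KIT+ fraction of WT mice and none was higher in the Zbtb16 table, with limma on log2(FPKM + 0.1), an adjusted p of at most 0.05 over all genes and a change of at least 1.5-fold (a call). Calls made up 21.2% of the 22374 genes tested, and lower calls 14%. Pmaip1, which encodes the MCL1 antagonist NOXA, was 18.8, 18.7 and 21.6 FPKM in WT THY1+ uSPG and 4.68, 5.73 and 5.21 in WT KIT+ dSPG. The fractions were far apart, at -1.90 on the log2 scale (SE 0.111, adjusted p = 4.62e-07), or 0.268 times the THY1+ level. Bcl2, the founding guardian of the family, was 2.61, 2.32 and 2.12 FPKM in WT THY1+ uSPG and 0.863, 1.498 and 1.05 in WT KIT+ dSPG. The groups did not overlap, and the log2 fold change was -1.01 (SE 0.264, adjusted p = 0.0140). Leaving out WT THY1+ replicate 1 or WT KIT+ replicate 1 took the adjusted p for Bcl2 to 0.0528 or 0.0568.

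The other guardians differed less between the WT fractions. Bcl2l1 was 10.9, 11.2 and 9.38 FPKM in WT THY1+ uSPG and 8.50, 8.79 and 8.20 in WT KIT+ dSPG (log2 fold change -0.30, adjusted p = 0.0972), with no overlap. Mcl1 overlapped between the fractions (log2 fold change -0.16, adjusted p = 0.397). Of the pore formers, Bax was 51.1, 55.8 and 65.7 FPKM in THY1+ uSPG and 72.8, 71.9 and 84.2 in KIT+ dSPG. All KIT+ libraries lay above all THY1+ libraries, by 0.41 on the log2 scale (SE 0.125, adjusted p = 0.0294), which is under the 1.5-fold line. In all, 5 of 10 members did not overlap between the WT fractions, against 42.7% of all genes tested.

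In Zbtb16 null mice 1 member, Pmaip1, was called lower in KIT+ dSPG, where calls made up 29.2% of the genes tested and lower calls 16%. Pmaip1 was 25.9, 31.1 and 30.2 FPKM in null THY1+ uSPG and 7.79, 6.99 and 6.79 in null KIT+ dSPG (log2 fold change -1.998, SE 0.111, adjusted p = 3.56e-07). Bcl2 did not separate the null fractions, at 1.52, 2.56 and 1.53 against 1.38, 2.30 and 2.21 FPKM (log2 fold change 0.08, adjusted p = 0.847). Mdm2 was 38.1, 33.3 and 40.4 FPKM in null THY1+ uSPG and 28.0, 24.2 and 28.5 in null KIT+ dSPG, with no overlap and a difference of -0.47 on the log2 scale (SE 0.1004, adjusted p = 0.00326). Mcl1 was higher in null KIT+ dSPG by 0.44 on the log2 scale (adjusted p = 0.0177), again without overlap. Both differences were under the 1.5-fold line and are not calls. Groups did not overlap for 3 members and for 48.6% of all genes. Without null KIT+ replicate 1, Bak1 became a call in this comparison (0.83, adjusted p = 0.0140).

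The Sox3 cKO fractions carried the markers of their labels. There Pmaip1 was the 1 member called, among 22.7% of genes called in either direction and 12.2% called lower. It was 39.7, 22.8 and 40.6 FPKM in cKO THY1+ uSPG and 10.1, 7.54 and 11.7 in cKO KIT+ dSPG (log2 fold change -1.78, SE 0.221, adjusted p = 0.000119). Bcl2l1 was 11.1, 10.5 and 10.2 FPKM in the THY1+ and 6.64, 7.54 and 7.55 in the KIT+ libraries, at -0.54 (SE 0.116, adjusted p = 0.00464), also without overlap but under the line. Groups did not overlap for 6 members and for 44.5% of all genes. In WT mice of the Sox3 table, the libraries labelled KIT+ had more Pmaip1 (25.5, 20.04 and 26.2 FPKM) than those labelled THY1+ (6.45, 6.42 and 5.79), and Bcl2 was also called higher in the libraries labelled KIT+ (log2 fold change 0.89, adjusted p = 0.00557). Calls made up 19.7% of genes in that comparison and higher calls 13.1%, and groups did not overlap for 4 members and for 40.6% of all genes. For Pmaip1 this direction is opposite to that in the other 3 pairs of fractions as labelled. In each of the 4 pairs Pmaip1 was higher in the libraries with more Thy1.

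**Figure D2:**
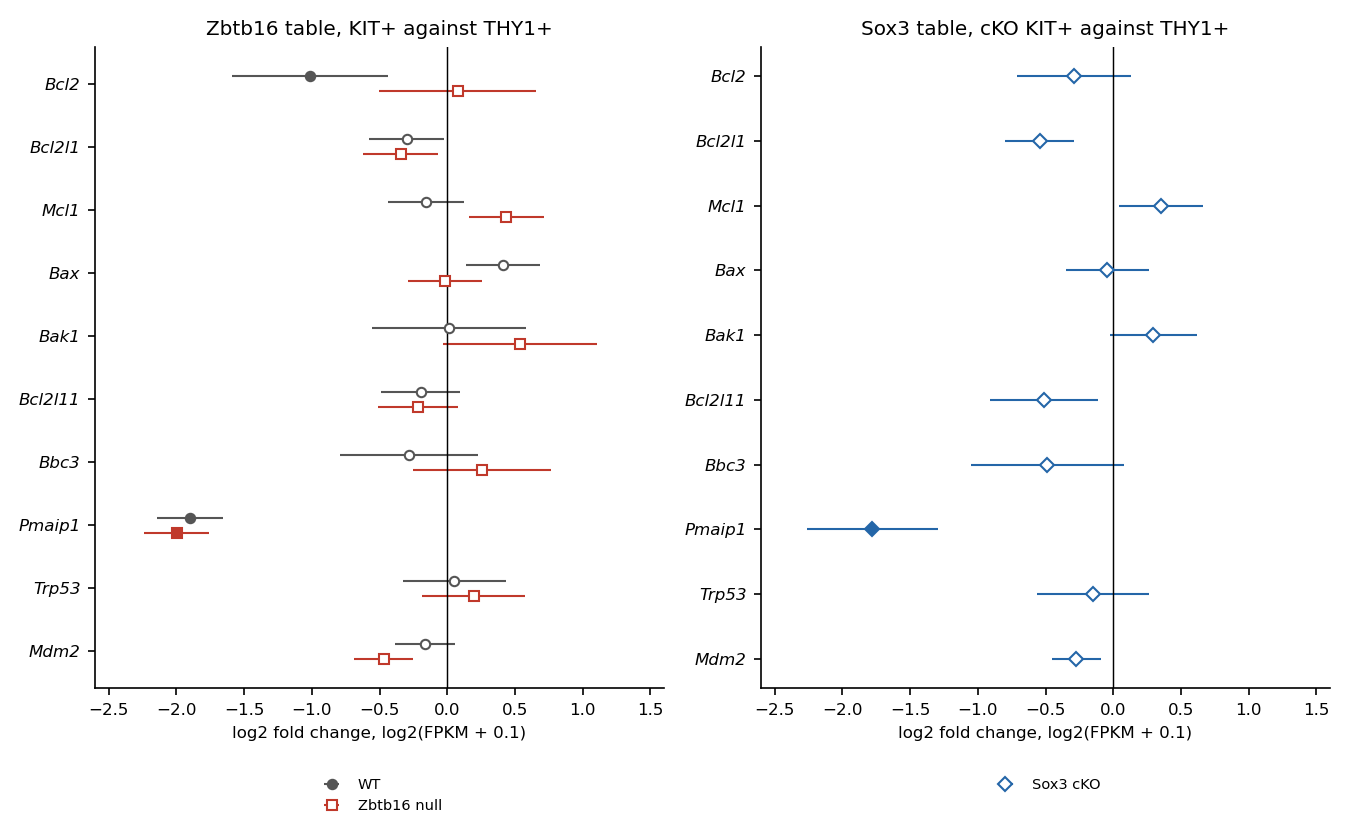
Log2 fold change of KIT+ against THY1+ libraries (horizontal axis, on the log2(FPKM + 0.1) scale) for each gene (vertical axis), with 95% confidence intervals as lines and filled points for calls. Left, WT (grey) and null (red) in the Zbtb16 table, and right, the Sox3 cKO. Pmaip1 lies at -1.90, -1.998 and -1.78.

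Markers of other cells also differed between the fractions. The summed level of the 11 macrophage markers measured, of 12 listed, was 1077 to 1235 FPKM in WT THY1+ and 5.38 to 7.37 in WT KIT+ libraries, and that of 6 Leydig cell markers was 83.1 to 119 against 1215 to 2272. The sum of 14 markers of undifferentiated spermatogonia was 183 to 210 against 36.6 to 65.0. The sum of 8 peritubular and stromal markers was 453 to 657 against 209 to 412. No measured gene of these lists was at 0 in all libraries of a group. Over all 24 libraries 7 general germ cell markers summed to 728 to 1455 FPKM. Between the WT groups their sums overlapped in both tables, at 1020 to 1176 in THY1+ and 981 to 1169 in KIT+ libraries of the Zbtb16 table. In null mice the sums were 1173 to 1455 in THY1+ and 728 to 1046 in KIT+ libraries, without overlap. In Sox3 cKO mice they were 1056 to 1207 and 738 to 1015, also without overlap. The part of these markers in the differences of Pmaip1, Bcl2 and the other members was not tested. In sorted bulk RNA fewer cells of a type and less RNA per cell cannot be told apart.

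The second comparison asks whether the survival genes depended on ZBTB16. None of the 10 members was called between null and WT mice in either fraction. In THY1+ uSPG calls made up 3.98% of genes by limma. An unadjusted p under 0.05 was found for 1 member (Pmaip1) and for 5325 of the 22374 genes tested. In KIT+ dSPG calls made up 0.259% of genes. There 3 members and 3863 of the 22374 genes tested had an unadjusted p under 0.05. Pmaip1 came closest to a call in THY1+ uSPG. Its 3 null libraries (25.9, 31.1 and 30.2 FPKM) lay above its 3 WT libraries (18.8, 18.7 and 21.6), with a 1.47-fold difference (log2 fold change 0.56, SE 0.111, adjusted p = 0.0179). Groups did not overlap for 29.5% of all genes in this comparison and for 1 of 10 members. Without WT THY1+ replicate 3 or null THY1+ replicate 1 the log2 fold change of Pmaip1 was 0.63 or 0.64, and Pmaip1 became a call.

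In KIT+ dSPG Pmaip1 was 4.68, 5.73 and 5.21 FPKM in WT and 7.79, 6.99 and 6.79 in null libraries. The groups again did not overlap (log2 fold change 0.46, adjusted p = 0.137), which held for 3 of 10 members and for 17.5% of all genes. Averaged over both fractions the difference was 0.51 (95% confidence interval 0.34 to 0.68, adjusted p = 0.00462), or 1.42-fold, where calls made up 2.3% of genes and none of the members. The change in KIT+ dSPG less that in THY1+ uSPG was -0.10 (adjusted p = 0.744, 95% confidence interval -0.44 to 0.25). In null THY1+ uSPG the summed macrophage markers were lower than in WT (499 to 936 FPKM against 1077 to 1235), and the sums of the undifferentiated markers overlapped (184 to 246 against 183 to 210). The 7 general germ cell markers were all higher in null THY1+ uSPG, as Pmaip1 was. Their median log2 fold change was 0.32, with no call, and their sums were 1173 to 1455 against 1020 to 1176 FPKM. Of the 7, 4 had an unadjusted p under 0.05, against 5325 of the 22374 genes tested. The part of these markers in the Pmaip1 difference was not tested.

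The guardians showed no call in null mice, with wide intervals for Bcl2. In THY1+ uSPG its log2 fold change was -0.35 (95% confidence interval -0.93 to 0.22), and in KIT+ dSPG it was 0.74 (0.16 to 1.32, adjusted p = 0.214), where null replicate 1 (1.38 FPKM) lay below WT replicate 2 (1.498). Mcl1 was 44.3, 52.2 and 57.2 FPKM in WT KIT+ dSPG and 59.2, 69.9 and 79.4 in null KIT+ dSPG, with no overlap and a log2 fold change of 0.44 (adjusted p = 0.172). The sums of stromal markers in these KIT+ groups were 209 to 412 in WT and 330 to 663 in null libraries, and those of Leydig cell markers 1215 to 2272 and 2045 to 3122. Their part in the Bcl2 and Mcl1 values was not tested. In the test of whether the genotype difference itself differed between fractions, Bcl2 gave 1.09 (SE 0.373, adjusted p = 0.135) and Mcl1 0.59 (SE 0.180, adjusted p = 0.113). Without null KIT+ replicate 1 the value for Mcl1 was a call (0.70, adjusted p = 0.0495), and with the replicate number as a block both were (adjusted p = 0.0332 and 0.0326). None of the members was called there by limma, and calls made up 0.0313% of genes. An unadjusted p under 0.05 was found for 3 members and for 5014 of the 22374 genes tested.

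Bcl2l1 was the least different guardian, with 95% confidence intervals of -0.23 to 0.32 in THY1+ uSPG and -0.28 to 0.28 in KIT+ dSPG around changes of 0.04 and -0.001. Of the pore formers, Bax gave 0.20 (-0.07 to 0.48) in THY1+ uSPG and -0.23 (-0.50 to 0.05) in KIT+ dSPG, and Bak1 gave -0.32 (-0.89 to 0.26) and 0.21 (-0.36 to 0.78). The BH3-only genes Bcl2l11 and Bbc3 and the p53 pair did not pass the test in either fraction. Bcl2l11 gave -0.21 (-0.51 to 0.08) in THY1+ uSPG and -0.23 (-0.52 to 0.06) in KIT+ dSPG, where the groups did not overlap. Averaged over both fractions Bcl2l11 was at -0.22 (-0.43 to -0.01, adjusted p = 0.243 by limma). Trp53 gave -0.09 (-0.47 to 0.29) and 0.05 (-0.33 to 0.44), and Mdm2, its negative regulator and target, 0.21 (-0.01 to 0.43) and -0.09 (-0.31 to 0.13). Bbc3 gave -0.31 (-0.82 to 0.20) in THY1+ uSPG and 0.23 (-0.28 to 0.74) in KIT+ dSPG. The intervals for Bcl2, Bak1, Bbc3 and Pmaip1 hold differences of 1.5-fold in both fractions, so equal levels were not shown. The same holds for Mcl1 in KIT+ dSPG.

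The third comparison asks the same question for SOX3. Averaged over both fractions, 2 of 10 members were called in the Sox3 cKO, Bcl2 higher and Bax lower, where calls made up 10.3% of the 21212 genes tested, higher calls 7.49% and lower calls 2.83%. Bcl2 was 3.003, 3.66 and 2.45 FPKM in cKO THY1+ and 2.47, 2.15 and 2.71 in cKO KIT+ libraries. In WT it was 1.27, 0.889 and 0.988 in the libraries labelled THY1+ and 2.20, 1.94 and 1.89 in those labelled KIT+. The lowest cKO library lay just under the highest WT library, and the averaged log2 fold change was 0.86 (SE 0.136, 95% confidence interval 0.56 to 1.15, adjusted p = 0.00326), or 1.81-fold. Bax, the main pore former of male germ cells, was 58.2, 56.8 and 56.1 FPKM in cKO THY1+ and 58.3, 48.1 and 60.4 in cKO KIT+ libraries. In WT it was 96.9, 110 and 86.8 in the libraries labelled THY1+ and 82.8, 80.7 and 60.6 in those labelled KIT+. All 6 cKO libraries lay below all 6 WT libraries, which held for 4.37% of all genes in one direction or the other, although the highest cKO library (60.4) and the lowest WT library (60.6) almost met. The averaged log2 fold change was -0.59 (SE 0.0983, 95% confidence interval -0.81 to -0.38, adjusted p = 0.00337), close to the 1.5-fold line.

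The call for Bax was near the limit. Leaving out WT labelled THY1+ replicate 2, WT labelled KIT+ replicate 1 or 2, or cKO KIT+ replicate 2 gave -0.55, -0.55, -0.56 and -0.54, each under 1.5-fold, and the fit on replicates 2 and 3 alone gave -0.58 with an adjusted p of 0.0577. After rescaling each library to the same sum of FPKM the median of all genes in this comparison moved from 0.02 to 0.23, Bax was -0.38 (adjusted p = 0.00660) and not a call, and Bak1 (0.67) and Pmaip1 (0.77) became higher calls. Of the alternatives run, 1 ended the call for Bcl2, a pseudocount of 1, which shrinks changes of low genes (0.58).

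Of the other members, 3 had an adjusted p of at most 0.05 but less than 1.5-fold. Pmaip1 was higher by 0.55 (SE 0.156, adjusted p = 0.0255) and became a call without WT labelled KIT+ replicate 3 (0.59), cKO THY1+ replicate 2 (0.69) or cKO KIT+ replicate 2 (0.64). Bak1, the second pore former, was higher by 0.45 (SE 0.104, adjusted p = 0.0114) and Mcl1 by 0.32 (SE 0.0997, adjusted p = 0.0361). Bcl2l1 was lower by 0.19 on the log2 scale (95% confidence interval -0.37 to -0.01, adjusted p = 0.117) and at 0.03 after the same rescaling. Bcl2l11, Bbc3, Trp53 and Mdm2 gave -0.15, -0.12, -0.10 and -0.06, with intervals that all hold 0, and lay above 0 after that rescaling. For Mdm2 the interval was narrow (-0.19 to 0.07), but the rescaled value of 0.16 lay outside it.

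The 2 pairs of groups with the same sorting markers give the parts of this average, and they use the same libraries. Between cKO THY1+ and WT labelled KIT+ libraries, both high in Thy1, none of the members was called by limma, and calls made up 0.0707% of genes. An unadjusted p under 0.05 was found for 3 members and for 2793 of the 21212 genes tested. Bcl2 gave 0.56 (95% confidence interval 0.14 to 0.98, adjusted p = 0.292) and Bax -0.37 (-0.68 to -0.07, adjusted p = 0.313). Groups did not overlap for 3 members (Bcl2, Bax and Bbc3) and for 19.6% of all genes. Between cKO KIT+ and WT labelled THY1+ libraries, both high in Kit, 4 members were called, among 17% of genes called, 12.4% called higher and 4.57% called lower. Groups did not overlap for 6 members and for 40% of all genes. Bcl2 was higher by 1.15 (SE 0.192, adjusted p = 0.00333), Bak1 by 0.77 (SE 0.146, adjusted p = 0.00524) and Mcl1 by 0.61 (SE 0.141, adjusted p = 0.0114), and Bax fell by 0.81 on the log2 scale (SE 0.139, adjusted p = 0.00363). Mcl1 fell under the 1.5-fold line without WT labelled THY1+ replicate 2 or 3 or cKO KIT+ replicate 1 (0.56, 0.51 and 0.49). With equal sums of FPKM, where the median of all genes was 0.27, Bax was -0.55 and no longer a call, and on replicates 2 and 3 alone its adjusted p was 0.0518. Pmaip1 was not a call (0.62, adjusted p = 0.0603) but became one with the replicate block (adjusted p = 0.0175), with equal sums (0.89) and without cKO THY1+ replicate 2 or cKO KIT+ replicate 2 (adjusted p = 0.0194 and 0.0334). Whether the difference in Bcl2 or Bax differs between these pairs was not tested.

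Between the same 2 groups, both high in Kit, other cell markers differed as well. The summed stromal markers were 481 to 593 FPKM in cKO KIT+ and 203 to 332 in WT labelled THY1+ libraries, with Col3a1, Dcn and Pdgfra the most abundant. The Leydig cell markers summed to 2493 to 4941 against 1239 to 2004. The 7 general germ cell markers summed to 738 to 1015 against 1214 to 1374, and the 5 markers of differentiating spermatogonia to 169 to 217 against 359 to 388. The germ cell and differentiating markers were thus lower, and stromal and Leydig cell markers higher, in the group with more Bcl2 and less Bax. In cKO THY1+ and WT labelled KIT+ libraries the stromal sums were 395 to 880 and 294 to 527, which overlapped. The germ cell markers summed to 1056 to 1207 and 1253 to 1399 there, and the differentiating markers to 163 to 169 and 196 to 242, both lower in the cKO libraries without overlap, as Bax was. Their part in the Bcl2, Bak1, Mcl1 and Bax differences was not tested.

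**Figure D3:**
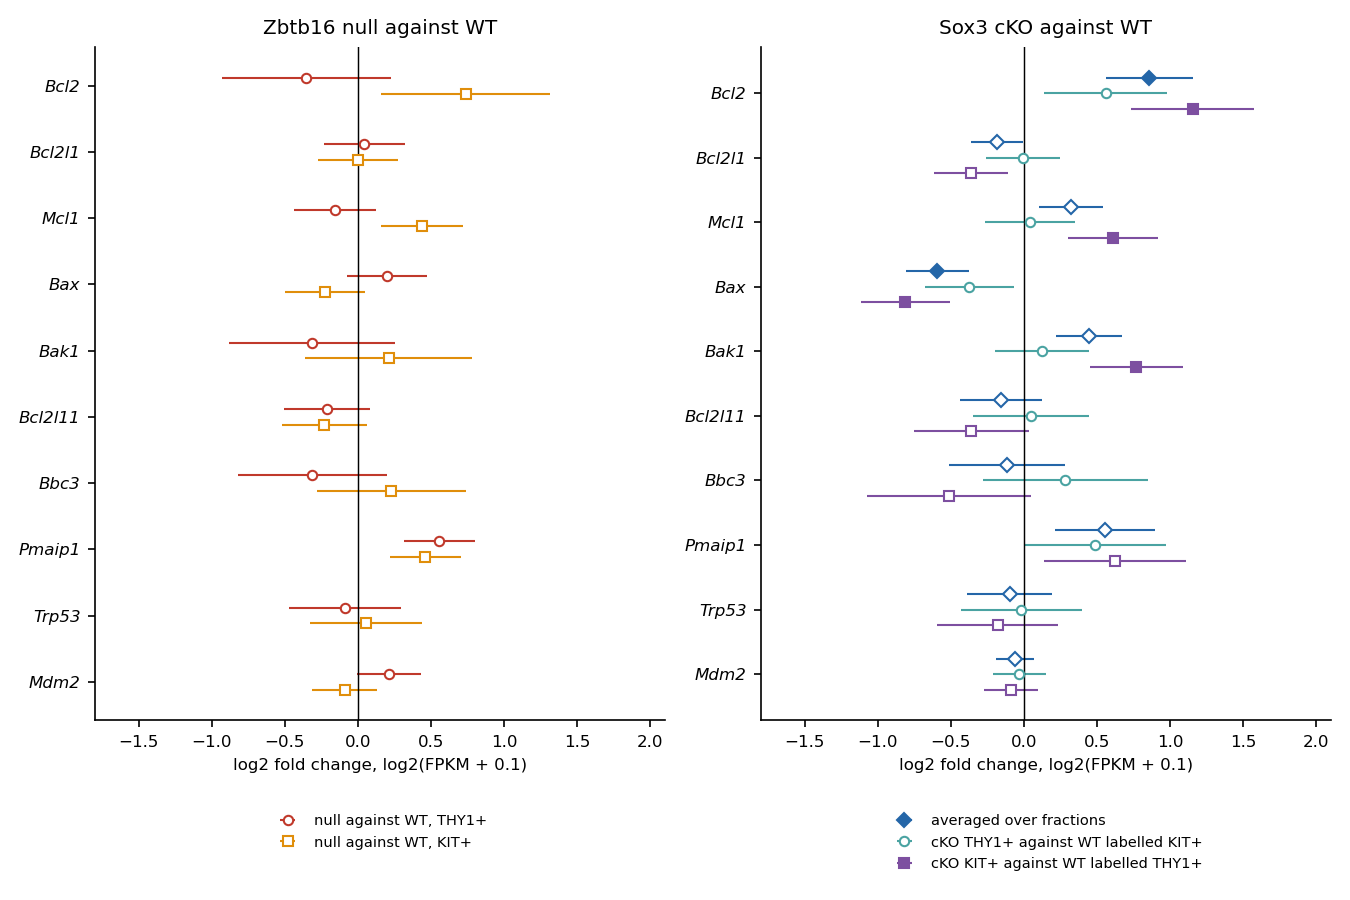
Log2 fold change of mutant against WT (horizontal axis, on the log2(FPKM + 0.1) scale) for each gene (vertical axis), with 95% confidence intervals as lines and filled points for calls. Left, Zbtb16 null in THY1+ (red) and KIT+ (orange) cells with no filled point, and right, Sox3 cKO averaged (blue) and in the 2 pairs of groups with the same sorting markers, where Bcl2 averages 0.86 and Bax -0.59.

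Compared as labelled, Sox3 cKO THY1+ against WT labelled THY1+ libraries gave 3 member calls among 29.1% of genes called (17.8% higher and 11.3% lower), and 5 members did not overlap against 50.5% of all genes. Pmaip1 was higher by 2.40, Bcl2 by 1.45, and Bax fell by 0.77 on the log2 scale. Sox3 cKO KIT+ against WT labelled KIT+ libraries gave 1 call among 25.1% (12.6% lower), with Pmaip1 at -1.29, and 8 members did not overlap against 46.5% of all genes. The sorting markers differ between the groups in both comparisons, so genotype and fraction cannot be told apart there.

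Ratios of FPKM within a library show how the members stood to each other, and are given as a description without a test. They are built from the values compared above, so a gap between genotypes in a ratio is not a separate result. Bax exceeded Bcl2 in every library. The ratio was 19.5, 24.03 and 30.9 in WT THY1+ uSPG and 84.3, 48.0 and 79.8 in WT KIT+ dSPG, so the WT fractions did not overlap. In null mice it was 41.1, 26.2 and 44.6 in THY1+ uSPG and 52.7, 23.9 and 30.9 in KIT+ dSPG, which overlapped. In the Sox3 table it was 76.4 to 123 and 32.1 to 41.6 in WT labelled THY1+ and labelled KIT+, and 15.5 to 22.9 and 22.2 to 23.7 in cKO THY1+ and KIT+, so that every cKO library lay below every WT library.

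The ratio of Bax to Bak1 behaved alike in the Sox3 table. It was 17.7 to 38.2 in the 6 WT libraries and 9.86 to 14.1 in the 6 cKO libraries. In the Zbtb16 table it ranged from 11.2 to 30.0 and all 4 groups overlapped with another. The ratio of Mcl1 to Bcl2 overlapped between Sox3 genotypes, at 29.5 to 55.5 in WT and 18.2 to 38.3 in cKO libraries. Within the pairs of groups with the same sorting markers it was lower in cKO libraries, without overlap. In the Zbtb16 table it overlapped between genotypes in both fractions. The ratio of Mdm2 to Trp53 overlapped between genotypes in all of these comparisons. The ratio of Pmaip1 to Mcl1, the NOXA transcript against that of its partner, was 0.308 to 0.373 in WT THY1+ uSPG and 0.503 to 0.610 in null THY1+ uSPG, without overlap. In WT and null KIT+ dSPG it was 0.0910 to 0.110 and 0.0856 to 0.132. In the Sox3 table it overlapped within both pairs of groups with the same sorting markers. It was 0.342 to 0.705 in cKO THY1+ against 0.316 to 0.468 in WT labelled KIT+ libraries. In cKO KIT+ and WT labelled THY1+ libraries it was 0.1005 to 0.159 and 0.1003 to 0.12996.

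**Figure D4:**
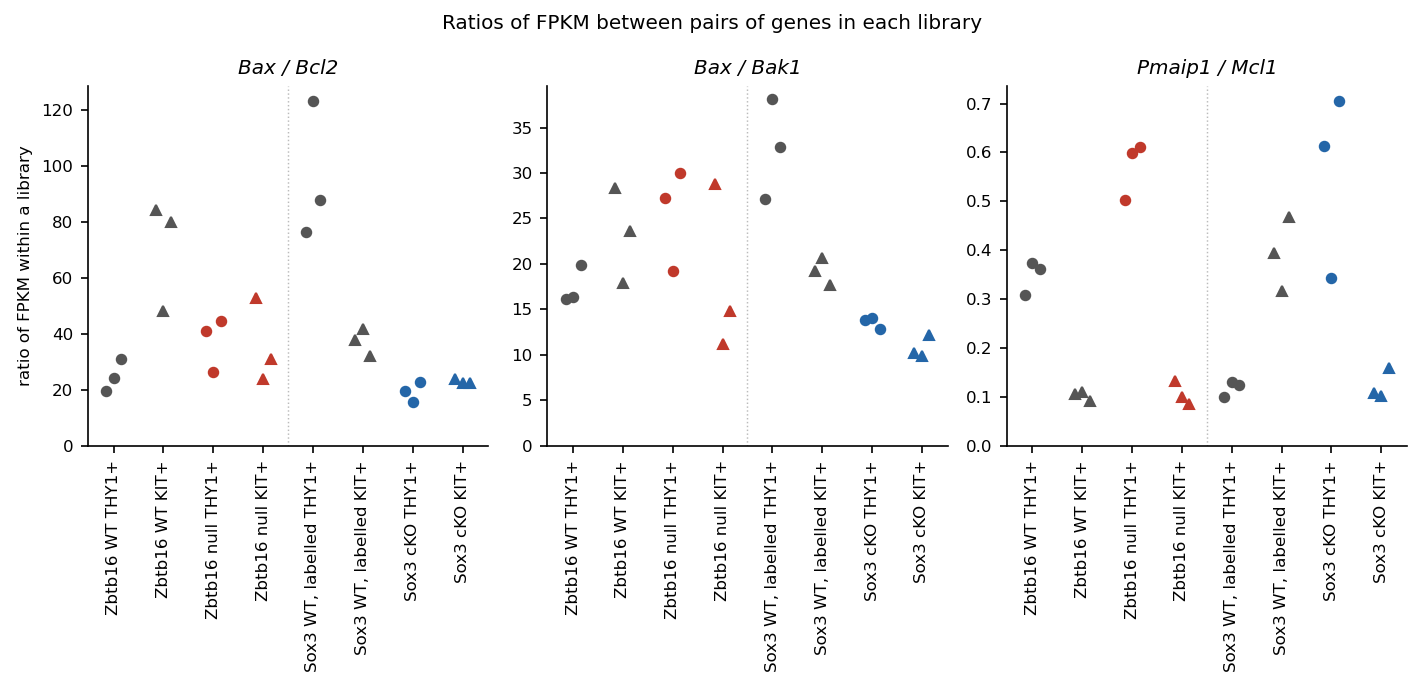
Ratio of FPKM within a library (vertical axes, from 0) of Bax to Bcl2, Bax to Bak1 and Pmaip1 to Mcl1, by group (horizontal axis), 1 point a library. Grey is WT, red Zbtb16 null, blue Sox3 cKO, circles are labelled THY1+ and triangles KIT+, and the highest cKO ratio of Bax to Bcl2 is 23.7 against a lowest WT ratio of 32.1 in the same table.

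The rest of the pathway was read from 4 lists. Of 16 further BCL2 family members 13 were measured, and 0 were called by limma in null THY1+ uSPG, null KIT+ dSPG or the averaged Sox3 effect, with 1, 2 and 3 at an unadjusted p under 0.05. Their median log2 fold changes were -0.03, -0.07 and -0.04, against -0.03, 0.01 and 0.02 over all genes. Of the 22374 genes tested, 5325 had an unadjusted p under 0.05 in null THY1+ uSPG and 3863 in null KIT+ dSPG. In the averaged Sox3 effect 8155 of the 21212 genes tested had an unadjusted p under 0.05. Between WT KIT+ and THY1+ cells 2 of the 13 were higher calls and 3 lower calls, against 21.2% of all genes called in either direction and 14% called lower. Higher calls numbered 1614 of the 22374 genes tested. Of 20 p53 targets 19 were measured. None was called in null mice in THY1+ uSPG or KIT+ dSPG, with medians of -0.17 and 0.01. In each fraction 4 had an unadjusted p under 0.05, against 5325 and 3863 of all 22374 genes. Between the WT fractions 5 were higher and 4 lower calls in KIT+ dSPG, or 9 of 19. Of all genes 21.2% were called in either direction, 14% were called lower, and 1614 of 22374 were called higher. In the averaged Sox3 effect 1 of the 19 was called, against 10.3% of all genes called and 7.49% called higher. This was Zmat3, an RNA-binding p53 target. It was 0.382 to 1.48 FPKM in WT and 0.884 to 2.27 in cKO libraries, and the averaged difference was 0.72 on the log2 scale (SE 0.191, adjusted p = 0.0201). Without WT labelled KIT+ replicate 1 or cKO THY1+ replicate 2 the adjusted p was 0.0521 or 0.0503.

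Of 12 regulators and relatives of p53, 11 were tested. None was called in null THY1+ uSPG or KIT+ dSPG, with medians of 0.14 and -0.15. In these fractions 2 and 3 had an unadjusted p under 0.05, against 5325 and 3863 of all 22374 genes. In the averaged Sox3 effect 1 was called higher, at under 1 FPKM in every group, and 1 lower, against 7.49% and 2.83% of all genes. The lower one was Cdkn2a, which encodes p16 and the MDM2 inhibitor ARF. It was 22.0, 27.9 and 28.5 FPKM in WT labelled THY1+ and 21.1, 19.96 and 15.7 in WT labelled KIT+ libraries, against 17.8, 12.7 and 18.7 in cKO THY1+ and 13.9, 9.09 and 17.5 in cKO KIT+ libraries. The genotypes overlapped, and the averaged log2 fold change was -0.60 (SE 0.163, adjusted p = 0.0220). Leaving out WT labelled THY1+ replicate 2 or 3, WT labelled KIT+ replicate 1 or 2, cKO THY1+ replicate 2 or cKO KIT+ replicate 2 ended the call (-0.58 to -0.47).

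Of 12 caspases and apoptosome genes 1 was called in null THY1+ uSPG, lower, with 3 at an unadjusted p under 0.05. Calls made up 3.98% of all genes there, and 283 of the 22374 genes tested were called lower. By limma 0 of the 12 were called in null KIT+ dSPG, again with 3 at an unadjusted p under 0.05. The median log2 fold changes were -0.13 and 0.02. Over all 22374 genes tested, 5325 in THY1+ uSPG and 3863 in KIT+ dSPG had an unadjusted p under 0.05. Casp8, the initiator caspase of death receptors, was 7.40, 6.94 and 6.38 FPKM in WT THY1+ uSPG and 3.78, 4.80 and 3.36 in null THY1+ uSPG (log2 fold change -0.79, SE 0.167, adjusted p = 0.0226). That call ended without WT THY1+ replicate 1 or 2 or null THY1+ replicate 1 or 3 (adjusted p = 0.0927, 0.0789, 0.0958 and 0.0898). In the same groups the summed macrophage markers were 1077 to 1235 and 499 to 936 FPKM, and their part in the Casp8 difference was not tested. In KIT+ dSPG Casp8 was 2.27, 2.87 and 2.84 FPKM in WT and 3.15, 3.85 and 4.37 in null libraries (log2 fold change 0.49, adjusted p = 0.203). In the averaged Sox3 effect 1 gene of the list was called, against 10.3% of all genes called and 7.49% called higher. This was Birc3, an inhibitor of apoptosis. It was 2.04 to 3.51 FPKM in WT and 3.21 to 6.16 in cKO libraries, and the averaged difference was 0.60 on the log2 scale (SE 0.164, adjusted p = 0.0233). Leaving out WT labelled THY1+ replicate 2 or 3, WT labelled KIT+ replicate 3, cKO THY1+ replicate 2 or cKO KIT+ replicate 1 ended the call (0.49 to 0.55).

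Genes whose levels were most like each member over the 12 libraries of the Zbtb16 table were taken by Pearson's r on the log2 scale among 16515 other genes with a mean of at least 1 FPKM. Since these libraries form 4 groups, r mostly reflects the pattern over groups. Nearest to Pmaip1 were Plekha1 (r = 0.992) and Spn (0.990), and nearest to Bcl2 were Penk (0.978) and Thbs2 (0.972). Mdm2 was most like Utp15 (0.986) and Nae1 (0.979), Bax like Taldo1 (0.955) and Jmjd4 (0.949), and Mcl1 like Asah1 (0.968) and Gpalpp1 (0.961). Bcl2l1 was nearest to Plekha8 (0.962) and Card10 (0.960), Bcl2l11 to BC030867 (0.977) and Zbtb40 (0.966), Bak1 to Pgm1 (0.954) and Kidins220 (0.952), and Trp53 to Atp6v0a2 (0.965) and Stim1 (0.959). Bbc3 had a mean under 1 FPKM and was left out.

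Some members overlap other annotated genes or have a pseudogene. Overlap was judged on whole gene spans, so shared exons were not shown. Bcl2 (ENSMUSG00000057329, chr1:106538178-106714274, minus strand, GRCm38) overlaps the antisense gene D630008O14Rik, which had a mean of 0.756 FPKM in the Zbtb16 table. On its own strand Bcl2 overlaps Gm37053 and Mir3473f, which are not listed in either table of values. Bak1 (ENSMUSG00000057789, chr17:27019810-27029009, minus strand) overlaps Ggnbp1 on the other strand, which had 8.62 FPKM there. Bax (ENSMUSG00000003873, chr7:45461697-45466898, minus strand) shares its strand with the overlapping gene model Gm45808, which is not listed in either table, and Trp53 (ENSMUSG00000059552, chr11:69580359-69591873, plus strand) has a processed pseudogene on another chromosome. The strand used in counting is not given in the sources used here and reads with several alignments were kept, so the values of Bcl2, Bak1, Bax and Trp53 may hold reads of these transcripts.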

How the data were processed

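Sequencing libraries were stranded, depleted of ribosomal RNA and read from one end. Reads were aligned by the authors to mm10 with Novoalign, keeping reads with several alignments, and the deposited values are FPKM computed by the authors with USeq, in 1 table for each mutant. The authors ran DESeq2 on read counts, which are not used here, so limma 3.58.1 (R 4.3.3) was used here on log2(FPKM + 0.1). Fold changes are on that scale, which understates changes of low genes.

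Genes with a mean of at least 0.1 FPKM across a table entered the test (22374 and 21212 genes). One model with 4 group means was fitted to each table (eBayes with trend and robust settings, two-sided), with Benjamini-Hochberg adjustment over all genes within each comparison. A call is an adjusted p of at most 0.05 and at least 1.5-fold. Libraries were grouped by their GEO labels alone, and the tables share no libraries. The genotype by fraction interaction was not fitted for the Sox3 table because of the label conflict.

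The members and gene lists were chosen with earlier results of these data known. For 1 gene of the lists results are not reported here. The text also names Zbtb16, Sox3, Thy1 and Kit as checks, for each member the 2 genes most like it, and those pathway genes called in null THY1+, null KIT+ or the averaged Sox3 effect, at most 5 for each, with a mean of at least 1 FPKM in a group. Windows of promoters came from RefSeq (GRCm38.p6), with 300 bases each, and gene positions from GENCODE. Depth was estimated from the spacing of low FPKM values, and counting precision follows from the reads of a gene. Alternatives were other pseudocounts, filters and scalings, a fit without trend and robust settings, fits on 2 groups, a replicate block, Sox3 replicates 2 and 3 alone, and each library left out in turn.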

Additional observations from a re-analysis of the deposited data

How the results depend on the processing

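Member calls were recounted under each alternative. Most counts were the same. With a pseudocount of 1, the averaged Sox3 effect and the comparison of the Sox3 WT groups each kept 1 call. The fit on Sox3 replicates 2 and 3 alone also left 1 call in each. Rescaling each library to the same sum of FPKM gave 6 calls for Sox3 cKO THY1+ against WT labelled THY1+, all higher, where the median of all genes moved to 0.44, and 2 for Sox3 cKO KIT+ against THY1+. Under it the order of the mean levels was the same in 7 of 8 groups. With 1 library left out at a time the calls ranged from 0 to 1 for Zbtb16 null against WT in THY1+ uSPG, from 1 to 2 for KIT+ against THY1+ in WT and in null, from 0 to 1 for the interaction, from 1 to 3 for the averaged Sox3 effect, from 3 to 5 for Sox3 cKO KIT+ against WT labelled THY1+ and from 1 to 2 for Sox3 cKO KIT+ against WT labelled KIT+. No call of a member changed direction under any alternative run. Signs changed for values that were not calls. Bcl2l1 in null KIT+ dSPG was 8.4e-05 with a pseudocount of 1, 0.0073 with median-of-ratios scaling and 0.10 with equal sums. With equal sums Bcl2l1 in null THY1+ uSPG was -0.0033, Mdm2 in null KIT+ dSPG 0.0048 and the interaction of Pmaip1 0.047, and the averaged Sox3 values were 0.030 for Bcl2l1, 0.059 for Bcl2l11, 0.092 for Bbc3, 0.12 for Trp53 and 0.16 for Mdm2. With 1 library left out, Bcl2l1 ranged from -0.037 to 0.11 in null THY1+ uSPG and from -0.11 to 0.12 in null KIT+ dSPG, Trp53 from -0.23 to 0.0096 and from -0.044 to 0.21, Bcl2 in null KIT+ against THY1+ from -0.047 to 0.32, and Trp53 in the averaged Sox3 effect from -0.16 to 0.028. Libraries of the same replicate number tended to deviate alike, and the main model holds no term for this. Among the Zbtb16 libraries the mean correlation of deviations was 0.326 for pairs of the same number and -0.164 for other pairs. Among the Sox3 libraries the means were 0.147 and -0.0728. The correlation was over 0.1 in 16 of 18 same-number pairs of Zbtb16 libraries and in 12 of 18 of Sox3 libraries. Of the Zbtb16 libraries 11 of 12 correlated best with their own number, and of the Sox3 libraries 9 of 12. Some same-number pairs were lower, and libraries were not treated as paired in the main model. With a replicate block the interaction had 2 member calls, Bcl2 (adjusted p = 0.0332) and Mcl1 (0.0326), and Sox3 cKO KIT+ against WT labelled THY1+ had 5, with Pmaip1 added (adjusted p = 0.0175). Among the pathway genes, equal sums ended the calls of Casp8 (adjusted p = 0.0987) in null THY1+ uSPG and of Cdkn2a (0.113) in the averaged Sox3 effect, and a pseudocount of 1 or replicates 2 and 3 alone ended those of Zmat3, Cdkn2a and Birc3. The cause of these changes was not tested. Low depth limits Bbc3 most, with 21 to 100 reads in a library.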
